A study of Mus musculus with 7 samples.

Results

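The 10 genes described here report fibroblast growth factor (FGF) signalling through RAS and ERK and were followed in mouse neural crest cells by single-cell RNA sequencing. The members were Spry1, Spry2, Spry4, Spred1, Spred2, Il17rd and Dusp6, which restrain the pathway, and Etv1, Etv4 and Etv5, ETS transcription factors that it induces. They were taken by symbol, 10 of the 32285 genes in the files, and each symbol was found. The 7 libraries came from Wnt1-Cre/+;ROSA-EGFPf/+ embryos on a mixed Swiss-Webster background, in which cells of the Wnt1-Cre lineage express EGFP, and live EGFP-positive cells were sorted. Control embryos gave 1 library at E8.5 from the anterior part of the embryo, 1 at E9.5 from the pharyngeal apparatus with heart, and 2 at E10.5 from arches 2 to 6 with heart. Tbx1 null embryos gave 1 library at E9.5 and 2 at E10.5. The titles of the null libraries read Tbx1null, their genotype field reads Tbx1+/-, and the study's text describes homozygous null embryos. Tbx1 was inactivated in the germline, and Wnt1-Cre only marked the cells. Wnt1-Cre also marks dorsal neural tube, so sorted cells included neural cells. Each library was a pool of embryos and is 1 replicate, so p-values measure the spread between such pools.

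FGF ligands bind receptor tyrosine kinases and activate RAS, RAF, MEK and ERK. ERK activity induces Etv4 and Etv5, and often Etv1, and also induces inhibitors that close a feedback loop: Sprouty and Spred proteins act on the RAS and RAF steps, Il17rd (Sef) holds back signalling at the receptor and at MEK and ERK, and the phosphatase Dusp6 removes the activating phosphates of ERK in the cytoplasm. Transcripts of these genes are widely read as a sign of FGF activity in the pharyngeal arches, where ligands come mostly from ectoderm, endoderm and mesoderm. Tbx1, a T-box factor of pharyngeal endoderm and mesoderm that is mutated or deleted in 22q11.2 deletion syndrome, is known to act upstream of Fgf8 and Fgf10 in those tissues.

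Promoters of 3 members are shown because Spry1, Spry2 and Dusp6 were each called higher in both Hox-expressing mesenchymal classes and in mesenchymal over neural cells (below), and because their RefSeq start sites equal those of the annotation used for positions. Each line is the 250 bases before the start site, on the gene's strand, in RefSeq's GRCm38.p6. Dusp6 lies at chr10:99262981-99263230 (plus strand), Spry1 at chr3:37639697-37639946 (plus strand) and Spry2 at chr14:105896820-105897069 (minus strand). All letters are lower case because none of the motifs searched lies in these stretches.
Dusp6: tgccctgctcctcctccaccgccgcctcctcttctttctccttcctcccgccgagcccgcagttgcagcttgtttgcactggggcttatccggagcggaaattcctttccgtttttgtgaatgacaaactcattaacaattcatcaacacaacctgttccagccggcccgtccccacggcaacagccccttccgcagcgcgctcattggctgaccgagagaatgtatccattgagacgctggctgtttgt
Spry1: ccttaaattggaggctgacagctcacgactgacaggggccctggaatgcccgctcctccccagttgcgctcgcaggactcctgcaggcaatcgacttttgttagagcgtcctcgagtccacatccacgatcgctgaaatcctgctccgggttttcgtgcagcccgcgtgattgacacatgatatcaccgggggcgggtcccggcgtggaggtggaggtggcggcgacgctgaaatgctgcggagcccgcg
Spry2: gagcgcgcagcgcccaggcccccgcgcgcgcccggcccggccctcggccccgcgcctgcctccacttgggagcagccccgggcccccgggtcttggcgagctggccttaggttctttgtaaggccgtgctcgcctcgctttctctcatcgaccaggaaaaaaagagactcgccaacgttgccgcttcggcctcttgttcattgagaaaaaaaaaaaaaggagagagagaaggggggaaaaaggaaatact
The ETS core CCGGAA, read on both strands, was searched in windows from 250 bases before to 50 after the start site, with 10 windows for the 8 members matched (Spry4 and Etv4 had no entry). It was found in 1 member window, that of Spry2, 33 bases after the start site, and in 4894 of all 32851 windows, 14.9%. The Spry2 match is shown with its core in capitals: tcatctatcCCGGAAtccgggagg. The letters TGAATGAA or TGAATGGA, bound by Capicua, an ERK-inactivated repressor of Etv genes, were in 0 of the 10 member windows and in 2.47% of all windows. Other forms of the Capicua site were not searched, so this does not show that the windows lack one.

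After filters on gene number, mitochondrial UMIs and doublets, 5587 to 9557 cells remained per library. A mesenchymal cell had at least 2 UMIs of Twist1, Prrx1 and Prrx2 together, and there were 2232 to 7076 per library. They were split into Hox-negative cells (no UMI of Hoxa2, Hoxa3, Hoxb3 or Hoxd3), Hoxa2-only cells, as in the second arch, and Hox 3 cells (a UMI of Hoxa3, Hoxb3 or Hoxd3), as in the third and more caudal arches. Sox10 cells and neural cells (UMIs of Sox1, Sox2, Sox3, Elavl3 or Elavl4) without the mesenchymal gate served for comparison. UMIs were summed per library and class, and a level is in CPM, the counts of the gene for every 1000000 UMIs of the class. The sums held 52699054 to 159575459 UMIs per library for mesenchymal cells. Each UMI marks 1 transcript end, so levels of different genes are compared per transcript and were not divided by length. The 5 mesenchyme markers were detected in the mesenchymal cells of every library, with a summed level of 349 CPM at E8.5 and 1107 to 1539 CPM at E10.5. They include the gate genes Twist1, Prrx1 and Prrx2, so their detection follows in part from the gate. At E8.5, 60.1% of mesenchymal cells also had at least 2 Sox10 UMIs. The libraries of a pair shared 0 to 44 barcodes, at most 0.41%.

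Several features moved with genotype at E10.5 and stand beside all genotype values below. The 2 null libraries held more Hox 3 cells, 61.9% and 80.6% of mesenchymal cells against 36.4% and 25.3% in controls, and fewer cells with Dlx5 or Dlx6, 24.05% and 6.23% against 47.5% and 44.5%. Cells with Isl1 or Gata3 made up 27.8% and 33.9% in null against 19.7% and 20.1% in control libraries. The 7 neural markers summed to 210 and 836 CPM in null against 43.8 and 112 CPM in control mesenchymal cells, with 2038 to 3565 CPM in neural cells. The 5 Sox10 crest markers summed to 56.8 to 93.3 CPM against 10.6 to 11.5 CPM, with 847 to 945 CPM in Sox10 cells. Neural and Sox10 cells were gated on genes of these lists, so the levels there follow in part from the gates. Mesenchymal cells with at least 2 UMIs of Sox1, Sox2 or Sox3 made up 26.3% and 41.1% in null against 11.05% and 2.49% in controls. Kits also differed: version 2 at E8.5, version 3.1 for the other controls and null replicate 2 at E10.5, and version 3 for the remaining null libraries, so that at E9.5 kit and genotype cannot be told apart. Null replicate 2 at E10.5 stood apart, with the lowest sum of the 10 members, 109.9 CPM of mesenchymal UMIs, where the other 6 libraries had 146 to 182 CPM. The Tbx1 transcript gave no single answer on the genotype: in E10.5 mesenchymal cells it was at 7.82 and 4.57 CPM in control and at 6.18 and 6.26 CPM in null libraries, while in neural cells it was at 1.39 and 0.79 CPM in control and at 0.035 and 0.13 CPM in null libraries (65 and 13 against 2 and 7 UMIs), and at E9.5 at 0.56 and 0.089 CPM. A transcript end can lie outside a deleted part.

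The feedback inhibitors and ETS factors were low to moderate transcripts in mesenchymal cells, and which led changed with stage. Dusp6 (chr10:99263231-99267489, plus strand, GRCm38) was the highest member at E8.5 with 45.8 CPM and at E9.5 with 41.4 CPM in control and 41.2 CPM in null cells. At E10.5 it was at 30.6 and 33.6 CPM in controls and at 34.9 and 17.2 CPM in null libraries. Spred1 (chr2:117121374-117182279, plus strand), a membrane-associated inhibitor of RAF activation, was the most even member, at 29.9 to 38.2 CPM in the mesenchymal cells of all 7 libraries. It led in control replicate 1 (35.1 CPM) and in both null libraries (36.5 and 29.9 CPM) at E10.5.

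Il17rd (chr14:27038941-27107286, plus strand) had a higher level with each stage in controls. It was at 7.32 CPM at E8.5, 18.95 CPM at E9.5 and 33.4 and 38.2 CPM at E10.5, where it was the highest member of control replicate 2. In null mesenchymal cells it was at 22.9 CPM at E9.5 and at 21.0 and 16.1 CPM at E10.5. The control libraries thus stood in the order of their stages, while the null libraries did not. Tissue taken, share of Hox-negative cells and, for the youngest library, kit version also changed from stage to stage. An effect of stage itself can therefore not be separated from these. The same limit holds for each member whose whole mesenchymal levels are compared between stages. Etv4 (chr11:101769742-101785371, minus strand) had a like order in controls, with 2.45 CPM at E8.5, 8.02 CPM at E9.5 and 14.2 and 9.64 CPM at E10.5, and in null cells 5.81 CPM at E9.5 and 11.5 and 5.88 CPM at E10.5.

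In controls the Sprouty genes were highest at E9.5. Spry1 (chr3:37639947-37644598, plus strand) was at 10.4 CPM at E8.5, at 18.4 CPM in control and 21.6 CPM in null cells at E9.5, and at 9.53 and 7.46 CPM in controls at E10.5. The 2 null libraries at E10.5 were far apart for Spry1, at 18.3 and 5.14 CPM, above and below both controls. Spry2 (chr14:105891947-105896819, minus strand) was at 15.1 CPM at E8.5, at 19.7 CPM in control and 12.5 CPM in null cells at E9.5, and at 8.86 and 7.94 CPM in control and 14.1 and 8.84 CPM in null libraries at E10.5. Spry4 (chr18:38586247-38601415, minus strand) was the lowest member in 5 of the 7 libraries, at 4.14 CPM at E8.5, 7.86 and 7.83 CPM at E9.5 and 1.31 to 3.48 CPM at E10.5.

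Etv5, Etv1 and Spred2 had intermediate levels. Etv5 (chr16:22381309-22439719, minus strand) lay between 4.99 and 10.9 CPM over the mesenchymal cells of the 7 libraries, lowest in null replicate 2 at E10.5. Etv1 (chr12:38779380-38870484, plus strand) lay between 7.59 and 17.5 CPM, and its control libraries at E10.5, at 14.1 and 17.5 CPM, were the highest of the 7. Spred2 (chr11:19924375-20024026, plus strand) followed the order of stages in controls, from 8.68 CPM at E8.5 and 9.65 CPM at E9.5 to 12.3 and 17.9 CPM at E10.5, while null libraries were at 10.5 CPM at E9.5 and at 10.8 and 11.3 CPM at E10.5.

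**Figure D1:**
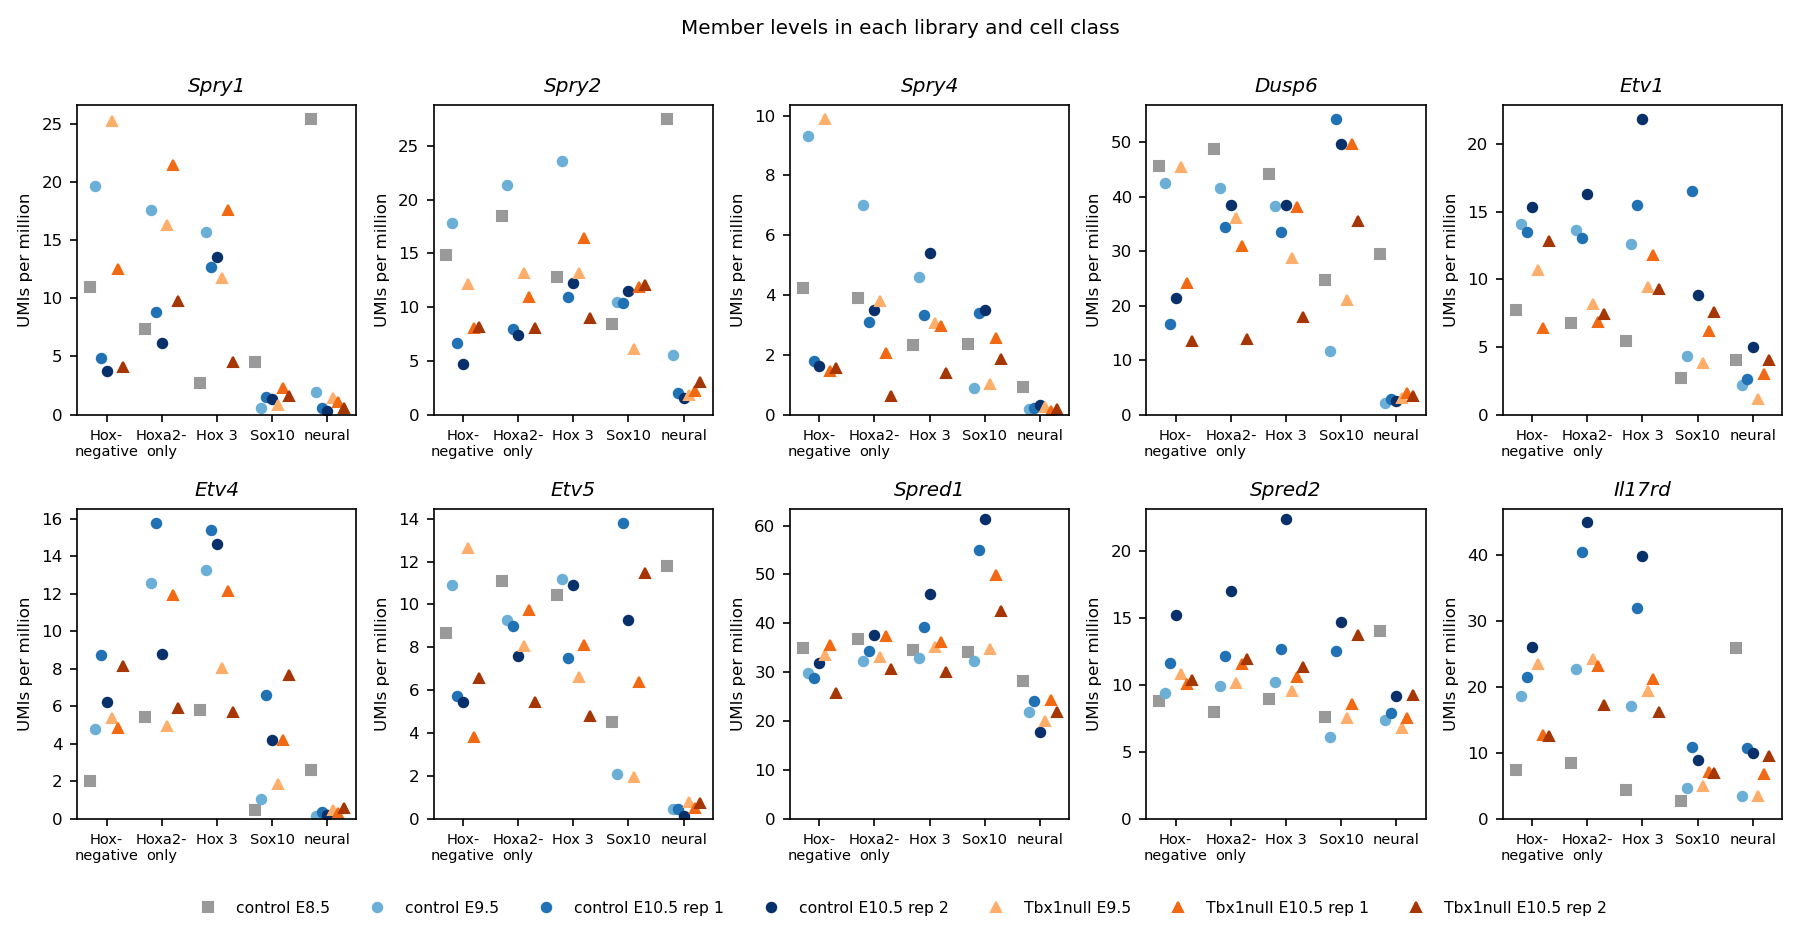
Levels of the 10 members in CPM (y axis, one panel per gene) in Hox-negative, Hoxa2-only and Hox 3 mesenchymal cells, Sox10 cells and neural cells (x axis), each point 1 of the 7 libraries. Etv4, Etv5 and Spry4 were near 0 in neural cells at E9.5 and E10.5, and Spred1 was high in every class.

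At E10.5, 6 of 10 members were called higher in Hox 3 than in Hox-negative mesenchymal cells of the same libraries, and 7 of 10 in Hoxa2-only cells, where 5.45% and 8.4% of all genes tested were. All 10 had a higher CPM in Hox 3 than in Hox-negative cells in both controls and in null replicate 1, and 6 of 10 in null replicate 2, with a median log2 ratio there of 0.14. Dusp6 was at 33.6, 38.5, 38.2 and 17.9 CPM in Hox 3 cells of control 1, control 2, null 1 and null 2, against 16.7, 21.4, 24.2 and 13.4 CPM in Hox-negative cells, so every library had more in Hox 3 cells. Spry1 was at 12.7, 13.5, 17.6 and 4.53 CPM against 4.87, 3.78, 12.6 and 4.06 CPM, with a wide gap in controls and a narrow one in null replicate 2. Il17rd was at 31.9, 39.9, 21.2 and 16.2 CPM against 21.6, 26.1, 12.7 and 12.5 CPM.

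The edgeR fit with library as block called 6 of 10 members higher and none lower in Hox 3 cells, where 5.45% of all genes tested were called higher. The log2 differences of the called members were 1.18 ± 0.24 for Spry1 (SE, n = 4 libraries, adjusted p = 0.023), 1.16 ± 0.28 for Spry4 (0.041), 0.94 ± 0.18 for Spry2 (0.015), 0.81 ± 0.09 for Dusp6 (0.0024), 0.61 ± 0.07 for Il17rd (0.0027) and 0.35 ± 0.09 for Spred1 (0.044). Of the ETS factors, Etv4 was at 0.91 ± 0.24 (0.052), Etv5 at 0.64 ± 0.23 (0.12) and Etv1 at 0.35 ± 0.17 (0.27), and none was called. Spred2 was at 0.28 ± 0.11 (0.15). The called members were all inhibitors, 6 of 7, but Etv4 at 0.91 lay above the called Il17rd and Spred1. Inhibitors and ETS factors were not tested against each other. The median log2 difference over the 10 members was 0.73. Hox-negative cells had fewer UMIs per cell, medians of 13657 to 20105 against 17203 to 23799 in Hox 3 cells, and a shallow cell is more easily scored Hox-negative. With cells thinned to 5000 UMIs, Dusp6 (0.57), Il17rd (0.49) and Spry2 (0.95) were still called, Spry1 (0.47, adjusted p = 0.32) and Spred1 (0.27, 0.17) were not, Spred2 (0.51) was called in addition, and Spry4 did not pass the filter on low counts. With a stricter mesenchymal gate of 5 UMIs that also drops cells with a Sox10 UMI or with 2 UMIs of Sox1, Sox2 and Sox3 all 10 were called, with log2 differences of 0.50 to 1.45. The 7 neural markers were also called higher in Hox 3 cells, all 7 of 7, while 2 of 3 endothelial, 2 of 5 heart muscle and 1 of 3 epithelial markers were lower, and the part of these in the result was not tested beyond that gate. Leaving out control replicate 1 left 2 calls, control replicate 2 left 3, null replicate 1 left 5 and null replicate 2 left 7. All genes called in either direction numbered 484 to 1999 over the alternatives.

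In the comparison of Hoxa2-only with Hox-negative cells, ETS factors were among the called genes. Il17rd was at 40.4, 44.97, 23.1 and 17.2 CPM in Hoxa2-only cells of control 1, control 2, null 1 and null 2, higher than in Hox-negative cells of each library, a log2 difference of 0.88 ± 0.07 (SE, n = 4 libraries, edgeR adjusted p = 0.00085). Called higher as well were Spry1 (0.89 ± 0.10, adjusted p = 0.0026), Dusp6 (0.78 ± 0.13, 0.0095), Etv4 (0.74 ± 0.19, 0.038), Etv5 (0.69 ± 0.19, 0.046), Spry2 (0.46 ± 0.13, 0.044) and Spred1 (0.27 ± 0.06, 0.018), 7 of 10 where 8.4% of genes tested were called higher. Spry4 (0.79 ± 0.29, 0.11) and Spred2 (0.21 ± 0.07, 0.088) were not called, and Etv1 was at 0.01 ± 0.13 (0.97). Null replicate 2 differed from the other libraries: 5 of 10 members were higher in its Hoxa2-only cells, with a median log2 ratio of 0.02, and Etv4 (5.90 against 8.13 CPM) and Etv5 (5.43 against 6.56 CPM) were lower there. Markers of other cells were lower in Hoxa2-only cells, 3 of 4 Sox10 crest, 2 of 7 neural and 2 of 3 each of heart muscle, endothelial and epithelial markers, as were 4 of 12 dissociation stress genes with 1 higher. With the stricter gate 7 members were called too, with Il17rd at 0.83, Dusp6 at 0.80, Etv5 at 0.74 and Etv4 at 0.69, and the part of the other lists was not tested. Thinning left 2 calls, Dusp6 at 0.42 and Il17rd at 0.45, and leaving out either control left 2, null replicate 1 left 4 and null replicate 2 left 8. All genes called in either direction numbered 298 to 3067 over the alternatives.

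At E8.5 and E9.5 that order was not seen. The number of members with a higher CPM in Hox 3 than in Hox-negative cells was 3 of 10 at E8.5, 5 of 10 in control and 3 of 10 in null cells at E9.5. Spry1 was lower in Hox 3 cells in each of those libraries, at 2.71 against 10.99 CPM at E8.5, 15.7 against 19.7 CPM in control and 11.7 against 25.2 CPM in null cells at E9.5. Dusp6 in the E9.5 control was at 38.3 against 42.5 CPM. Etv4 was the exception, with more in Hox 3 cells in all 3 libraries: 5.81 against 2.02 CPM, 13.3 against 4.77 CPM and 8.04 against 5.39 CPM. Hox-negative cells at E9.5 include the first arch, which was not dissected at E10.5. Stage cannot be told apart from the tissue taken, and each of those groups had 1 library.

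Within mesenchyme at E10.5, cells with a UMI of Dlx5 or Dlx6, homeobox genes of the middle and distal arch, had more Il17rd and more Etv4 and less Etv1. Il17rd was at 39.7, 43.2, 25.4 and 19.7 CPM in Dlx cells of control 1, control 2, null 1 and null 2, against 26.0, 33.0, 19.4 and 15.8 CPM in the other cells, higher in each library by 0.55 ± 0.08 on the log2 scale (SE, n = 4 libraries, edgeR adjusted p = 0.012). Etv4 was higher by 0.73 ± 0.16 (0.034) and Etv5 by 0.40 ± 0.11 (0.049), and Etv1 was lower, at -0.32 ± 0.07 (0.031). The other 6 members were not called, Spry2 at 0.02 ± 0.10 (0.91) among them, and the 4 calls of 10 stand beside 17% of all genes tested called in either direction. Markers of other cells were lower in Dlx cells, 6 of 7 neural markers (median -3.10), 4 of 4 Sox10 crest, 3 of 3 pharyngeal mesoderm, and 2 each of 3 endothelial, 3 epithelial and 5 heart muscle markers, and their part in the result was not tested beyond the stricter gate. These calls changed with the processing: thinned cells gave 0 called members, with Il17rd at 0.15 and Etv4 at 0.12, and leaving out control replicate 1 gave 0, control replicate 2 and null replicate 1 gave 1 each, and null replicate 2 gave 4. The stricter gate called Etv1 alone, at -0.68. All genes called numbered 311 to 3974 over the alternatives.

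Cells with a UMI of Isl1 or Gata3, which the study used to mark crest cells of the outflow tract, had less Dusp6 and more Etv1. Dusp6 was at 14.8 and 13.6 CPM in these cells of the 2 controls against 34.2 and 38.0 CPM in the other mesenchymal cells, and at 28.8 and 14.1 CPM against 37.3 and 18.9 CPM in null libraries, lower in every library. The log2 difference was -0.90 ± 0.22 (SE, n = 4 libraries, edgeR adjusted p = 0.038). Etv1 was at 21.7, 23.9, 11.2 and 11.7 CPM against 12.4, 16.2, 9.34 and 7.82 CPM, a difference of 0.52 ± 0.09 (0.014). Il17rd was at 19.2 and 19.8 CPM in Isl1 or Gata3 cells of controls against 36.6 and 42.3 CPM in the others, and at 19.9 and 14.8 CPM against 21.5 and 16.8 CPM in null libraries, with -0.63 ± 0.20 (0.076). The 2 calls of 10 stand beside 20.4% of all genes tested, a like share. Of the marker lists, 2 of 3 endothelial (median 2.13), 2 of 5 heart muscle, 1 of 3 epithelial and 5 of 13 dissociation stress genes were higher in Isl1 or Gata3 cells, and 3 of 7 neural and 1 of 4 Sox10 crest markers lower, and their part in the result was not tested beyond the stricter gate. Thinned cells gave 4 called members, Dusp6 (-1.05), Il17rd (-1.12), Etv4 (-0.78) and Etv1 (0.59). With the stricter gate 5 were called, all lower, with Dusp6 at -1.18 and Il17rd at -0.90, while Etv1 at 0.27 (adjusted p = 0.16) was not. Leaving out control replicate 1 gave 0 calls, control replicate 2 gave 1, null replicate 1 gave 3 and null replicate 2 gave 2. All genes called numbered 754 to 3379 over the alternatives.

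**Figure D2:**
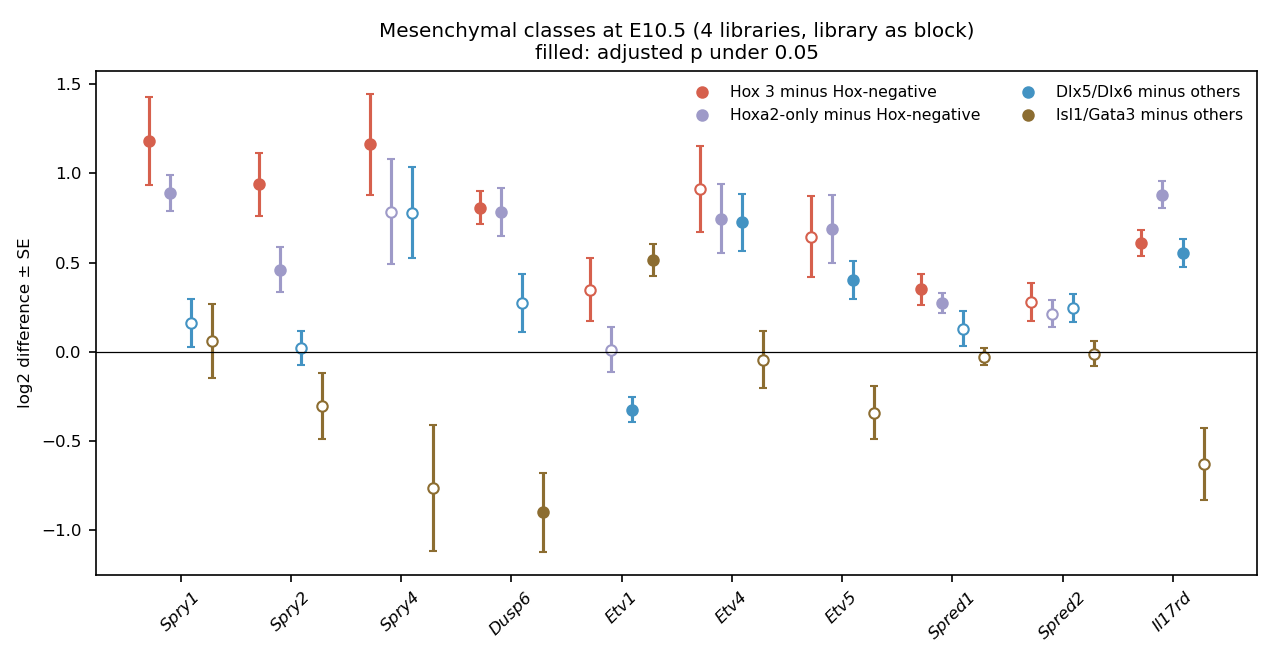
Log2 differences ± SE from edgeR (y axis) of the 10 members (x axis) between cell classes of the same libraries at E10.5 (n = 4 libraries): Hox 3 and Hoxa2-only against Hox-negative cells, Dlx5 or Dlx6 cells and Isl1 or Gata3 cells against other mesenchymal cells. Filled points have an adjusted p under 0.05, and Dusp6 lies at 0.81 for Hox 3 and at -0.90 for Isl1 or Gata3 cells.

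Against neural cells of the same libraries at E10.5, all 10 members were higher in mesenchymal cells. Etv4 was at 14.2, 9.64, 11.5 and 5.88 CPM in mesenchymal against 0.34, 0.18, 0.30 and 0.54 CPM in neural cells, a log2 difference of 4.79 ± 0.42 (SE, n = 4 libraries, edgeR adjusted p = 0.00093). Etv5 followed with 3.94 ± 0.44 (0.0016), Spry1 with 3.90 ± 0.26 (0.00051), Spry4 with 3.64 ± 0.30 (0.00082) and Dusp6 with 3.16 ± 0.27 (0.00086). Spry2 differed by 2.21 ± 0.23 (0.0014), Etv1 by 1.80 ± 0.23 (0.0022) and Il17rd by 1.52 ± 0.23 (0.0042). The Spred genes differed least, Spred1 by 0.70 ± 0.15 (0.013) and Spred2 by 0.63 ± 0.15 (0.019). The 10 calls of 10 stand beside 22.5% of genes tested called higher. Without control replicate 1 Spred2 lost its call (0.62, adjusted p = 0.078), and all 10 were called without each of the other 3 libraries and in thinned cells.

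Neural cells of E8.5 were unlike those of later stages. In them Spry1 was at 25.4 CPM, Spry2 at 27.5 CPM and Il17rd at 25.9 CPM, each above the mesenchymal level of that library. Dusp6 was at 29.6 CPM and Etv5 at 11.8 CPM, where neural cells of the other 6 libraries had 2.21 to 3.94 CPM and 0.12 to 0.75 CPM. The E8.5 library was made with another kit and from the anterior embryo, and these cannot be told apart from stage.

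At E10.5, Sox10 cells had as much as mesenchyme of some of these transcripts and little of others, while mesenchymal cells had more of 10 members at E8.5 and of 9 of 10 in both E9.5 libraries, with median log2 ratios of 0.94, 1.93 (control) and 1.53 (null). Spry1 was at 9.53, 7.46, 18.3 and 5.14 CPM in mesenchymal cells at E10.5 against 1.49, 1.34, 2.31 and 1.63 CPM in Sox10 cells, higher by 2.44 ± 0.24 (log2, SE, n = 4 libraries, edgeR adjusted p = 0.00048). Il17rd was higher by 1.59 ± 0.15 (0.00043). Dusp6 was lower in mesenchymal cells, by -0.76 ± 0.11 (0.0018), with 54.3, 49.8, 49.7 and 35.6 CPM in Sox10 cells. Spred1 was lower too, by -0.60 ± 0.05 (0.00031). The 4 calls of 10, 2 in each direction, stand beside 40% of all genes tested, the same share, and Spry2, Spry4, Spred2, Etv1, Etv4 and Etv5 were not called. At E9.5 the Sox10 cells had only 11.6 CPM of Dusp6 in control and 21.0 CPM in null cells, below the mesenchymal 41.4 and 41.2 CPM.

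Between E9.5 and E10.5 the Sprouty genes had the lowest log2 differences in Hox-positive mesenchymal cells, a class that both dissections held. Controls at E10.5 also held arches behind the third, which the study does not list at E9.5. The mix of Hox 3 and Hoxa2-only cells differed between libraries as well, so stage cannot be told apart from the arches taken. Over 2 E9.5 and 4 E10.5 libraries, with genotype as a term, Spry2 was lower at E10.5 by -1.15 ± 0.30 (log2, SE, n = 6 libraries, edgeR adjusted p = 0.044). Spry4 at -1.06 ± 0.33 (0.065), Spry1 at -0.86 ± 0.45 (0.21), Dusp6 at -0.58 ± 0.29 (0.19) and Etv5 at -0.57 ± 0.26 (0.16) were not called. Il17rd at -0.01 ± 0.31 (0.99), Spred2 at 0.01 ± 0.24 (0.98), Etv1 and Etv4, each at -0.18, were not called either. These values pool the genotypes: Il17rd in Hox 3 cells was at 17.1 CPM at E9.5 and at 31.9 and 39.9 CPM at E10.5 in controls, and at 19.4 CPM and then 21.2 and 16.2 CPM in null libraries. The median was -0.43 over the members and 0.09 over all genes tested. The 1 call of 10 stands beside 7.51% of genes called lower, a share near it, and it was lost on leaving out the E9.5 control (-0.59, 0.43), the E9.5 null library (-1.65, 0.075), control replicate 1 (-1.04, 0.13), control replicate 2 (-1.05, 0.11) or null replicate 2 (-1.06, 0.068). Without null replicate 1 at E10.5, 5 members were called lower. All genes called numbered 0 to 4264 over the alternatives, against 2437 in the main fit. The 13 dissociation stress genes had a median of -0.70, with 4 called lower and 2 higher, and the Sox10 crest markers one of -2.64, with 4 of 5 called lower. At E9.5, 13.5% of control and 9.09% of null mesenchymal cells had at least 2 Sox10 UMIs, against 0.32% to 7.44% at E10.5. With the stricter gate, which drops Sox10 cells, 3 members were called lower, Spry4 (-1.43, adjusted p = 0.021), Spry1 (-1.22, 0.047) and Spry2 (-1.18, 0.027), and the part of the stress genes was not tested.

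At E9.5 several members had a lower level in the null library. With 1 library per genotype there is no test, and the intervals cover counting error only. In Hox 3 cells, Spry2 had 707 UMIs in control and 383 in null cells, a log2 ratio of -0.93 (95% interval -1.11 to -0.75) after TMM scaling. Etv5 had 336 and 192 UMIs, at -0.85 (-1.12 to -0.59), and Etv4 had 399 and 234, at -0.81 (-1.05 to -0.58). Spry4 was at -0.67, Spry1 and Etv1 at -0.51 each and Dusp6 at -0.50, while Spred2 (-0.19), Spred1 (0.01) and Il17rd (0.10) were nearer to 0. In all, 7 of 10 members were under -0.5, against 5.17% of the genes with at least 100 UMIs, and 4 were with total UMIs in place of TMM, the alternative cell filter, doublets kept or the stricter gate.

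In Hoxa2-only cells 4 members were under -0.5, against 4.71% of genes: Etv4 with 281 and 104 UMIs at -1.40 (95% interval -1.75 to -1.08), Spry4 at -0.94, Etv1 at -0.80 and Spry2 at -0.76. Dusp6 and Etv5 were at -0.26 each. In Hox-negative cells only Spry2 was under -0.5, with 1430 and 1329 UMIs from 3293 and 4922 cells, at -0.61 (-0.72 to -0.50), against 5.07% of genes, and 3 members were in thinned cells. There Spry1 was higher in the null library, at 0.31 (0.22 to 0.40), as was Il17rd at 0.28 (0.19 to 0.38), while Etv1 was at -0.46. The median over the 10 members was -0.51 in Hox 3, -0.26 in Hoxa2-only and 0.12 in Hox-negative cells, where that of all genes with 100 UMIs lay between -0.01 and 0.00. In thinned cells the Hox-negative median turned to -0.081, with 6 of 10 members under 0 in place of 2, and the Hoxa2-only median was -0.42. Spry2 had a ratio under 0 in every class, -0.82 in Sox10 cells and -1.61 in neural cells (158 and 41 UMIs). The difference between classes was not tested, and kit version 3 was used for null and 3.1 for control cells.

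At E10.5, 0 of 10 members were called between genotypes in mesenchymal cells by edgeR, where 0.1% of all genes tested were called. At an unadjusted p under 0.05 there were 3, Il17rd, Etv1 and Spred2, beside 2394 of 15922 genes. DESeq2 called 2, Il17rd and Etv1, and over all alternatives 0 to 1416 genes were called. Il17rd had the widest gap: 33.4 and 38.2 CPM in control and 21.0 and 16.1 CPM in null libraries (35.8 ± 3.44 against 18.6 ± 3.48, SD, n = 2 each), a log2 difference of -1.12 ± 0.26 (SE, adjusted p = 0.22). Etv1 was at 14.1 and 17.5 CPM in control and 9.88 and 9.28 CPM in null libraries, -0.91 ± 0.24 (0.24). Spred2 was at 12.3 and 17.9 CPM against 10.8 and 11.3 CPM, -0.64 ± 0.27 (0.33). After TMM scaling, both null libraries lay below both controls for 5 members, Il17rd, Etv1, Spred1, Spred2 and Spry4, and for 26.7% of all genes. In CPM of total UMIs, Spred1 overlapped, with null replicate 1 at 36.5 CPM and control replicate 1 at 35.1 CPM. With the stricter gate, which drops cells with Sox10 or neural Sox UMIs, Il17rd was at -0.71 (0.33) and Etv1 at -0.63 (0.36).

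The remaining inhibitors and ETS factors were not called in mesenchymal cells as a whole either, and their null libraries were often far apart. Dusp6, at 30.6 and 33.6 CPM in control and 34.9 and 17.2 CPM in null libraries, differed by -0.46 ± 0.38 (edgeR adjusted p = 0.59). Spry1 was at 0.34 ± 0.58 (0.80) and Spry2 at 0.29 ± 0.32 (0.68). Etv4 was at -0.61 ± 0.40 (0.50), Etv5 at -0.40 ± 0.33 (0.58), Spry4 at -0.87 ± 0.43 (0.39) and Spred1 at -0.32 ± 0.23 (0.54). For Spry1 the 2 null libraries decided the value: without null replicate 1 it was -0.96, and without null replicate 2 it was 1.02. Dusp6 was at -1.15 and 0.029 in the same fits. Null replicate 2, made with the kit of the controls, was thus the lower of the 2 null libraries for both genes. By the study's somite counts its embryos were also older than those of null replicate 1. Cell make-up differed between these libraries too. Hox 3 cells were 61.9% of mesenchymal cells in null replicate 1 and 80.6% in null replicate 2. Mesenchymal cells with at least 2 UMIs of Sox1, Sox2 or Sox3 were 26.3% and 41.1%. Kit, embryo age and cell make-up cannot be told apart here.

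In Hox 3 cells, 6 members had both null libraries below both controls after TMM scaling, against 24.9% of genes, but 0 were called by edgeR, where 0.027% of genes were, and DESeq2 called Il17rd. Il17rd was at 31.9 and 39.9 CPM in control and 21.2 and 16.2 CPM in null Hox 3 cells, -1.10 ± 0.27 (SE, adjusted p = 0.29), and at -0.66 with the stricter gate. Etv1 was at 15.5 and 21.9 CPM against 11.8 and 9.29 CPM, -0.98 ± 0.29 (0.33). Etv4 was at 15.4 and 14.7 CPM against 12.1 and 5.71 CPM, -0.89 ± 0.39 (0.41). Spred2 was at -0.85 ± 0.31 (0.36), Spry4 at -1.14 ± 0.48 (0.39) and Spred1 at -0.52 ± 0.24 (0.43), while Dusp6 at -0.50 ± 0.38 (0.61) and Etv5 at -0.66 ± 0.37 (0.49) overlapped between genotypes. Without null replicate 1, the log2 differences were -1.71 for Spry1, -1.57 for Etv4, -1.33 for Il17rd and -1.19 for Dusp6. Over the fits that left out a library in turn, Spry1 ranged from -1.71 to 0.33. All genes called numbered 0 to 377 over the alternatives. The 10 members had a median of -0.75, all genes -0.01, and the neural markers of these cells summed to 291 and 967 CPM in null against 87.6 and 220 CPM in control libraries.

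**Figure D3:**
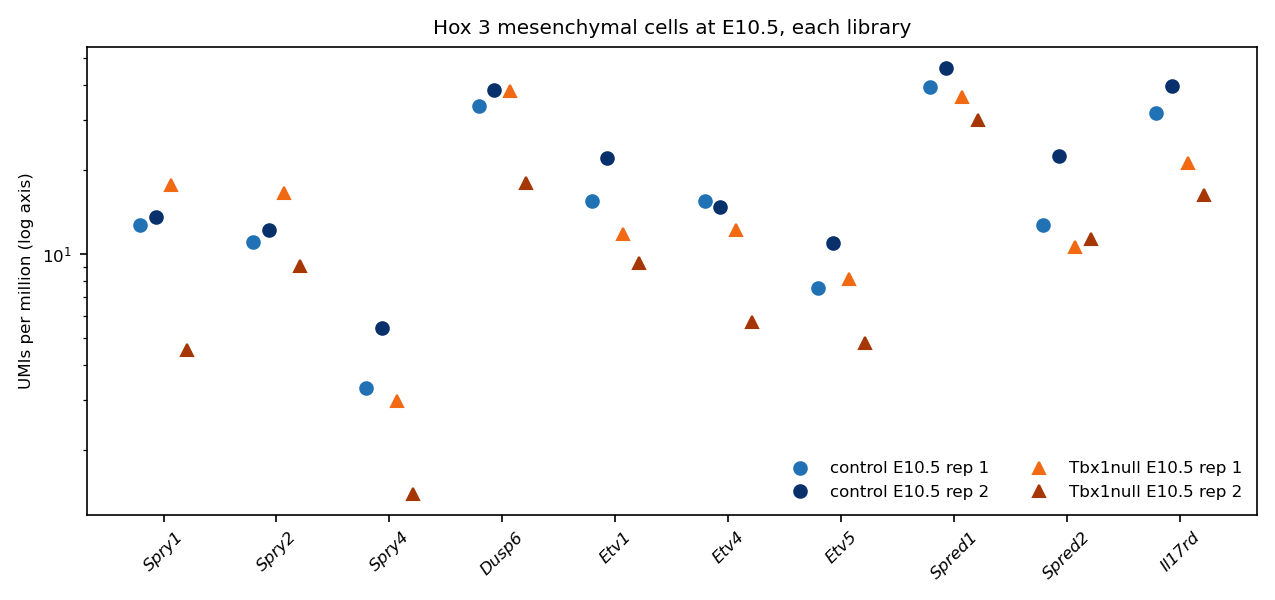
Levels of the 10 members (x axis) in Hox 3 mesenchymal cells at E10.5 in CPM on a log axis (y axis), each point 1 of 2 control or 2 Tbx1 null libraries. Null replicate 2 lies below both controls for all 10 members, and null replicate 1 lies above both controls for Spry1 and Spry2.

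In Hoxa2-only and Hox-negative cells too, Il17rd and Etv1 were lower in both null libraries than in both controls, while Spry1 had a log2 difference above 0. In Hoxa2-only cells, Il17rd was at 40.4 and 44.97 CPM in control and 23.1 and 17.2 CPM in null libraries, -1.22 ± 0.26 (SE, edgeR adjusted p = 0.12), and Etv1 was at 13.1 and 16.3 CPM against 6.81 and 7.45 CPM, -1.21 ± 0.25 (0.11). DESeq2 called both (adjusted p = 0.0043 and 0.026), and over all alternatives 18 to 772 genes were called. Spry1 was at 8.85 and 6.13 CPM in control and 21.5 and 9.78 CPM in null libraries, 0.97 ± 0.40 (0.34). After TMM scaling the genotypes overlapped for Spry1, with null replicate 2 at 8.75 and control replicate 1 at 9.29. In all, 0 members were called by edgeR beside 0.291% of genes, with 4 at an unadjusted p under 0.05, beside 1836 of 13750 genes. After TMM scaling, 5 had both null libraries below both controls, Il17rd, Etv1, Dusp6, Spry4 and Spred2, beside 24.9% of genes. In Hox-negative cells, Il17rd was at 21.6 and 26.1 CPM against 12.7 and 12.5 CPM, -1.04 ± 0.23 (0.077), and Spry1 was at 0.91 ± 0.45 (0.34). With a library left out in turn, Spry1 there ranged from -0.19 to 1.41, so its sign was not stable. Again 0 members were called, by DESeq2 too, beside 0.465% of genes, with 2 at an unadjusted p under 0.05, beside 2219 of 12904 genes. The replicate block and the fit without the filter on low counts called 1 member each, and over all alternatives 30 to 1210 genes were called. After TMM scaling, 4 had both null libraries below both controls (Il17rd, Etv1, Spred2 and Spry4), beside 24.3%. The null libraries held 333 and 156 Hox-negative cells, where controls held 856 and 2244.

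Il17rd had a log2 difference under 0 in the 4 mesenchymal sets under all 50 alternatives run, and was called in 13 of them, with values between -1.51 and -0.58. In all mesenchymal cells it moved from -1.12 to -0.64 in thinned cells (edgeR adjusted p = 0.31), to -0.86 in cells without Dlx5 or Dlx6 (0.33) and to -1.24 in cells without Isl1 or Gata3 (0.11). The Hox classes add up to all mesenchymal cells, and each alternative used the same E10.5 libraries or a part of them. The 50 results are thus not separate. In Isl1 or Gata3 cells themselves the genotypes overlapped for Il17rd, at 19.5 ± 0.39 CPM in control and 17.3 ± 3.57 CPM in null libraries (SD, n = 2 each), against 39.5 ± 4.05 and 19.2 ± 3.28 CPM in the other cells. Etv1 had one under 0 in the same 50 and was called in 7. As a test of whether the genotype difference itself depended on class, an interaction between Hox 3 and Hox-negative cells gave 0 called members, beside 0.353% of genes. At an unadjusted p under 0.05 it gave 3, beside 1260 of 15032 genes. Spry1 had the largest interaction, -1.21 ± 0.25 (edgeR adjusted p = 0.11), and was called without the filter on low counts (-1.20, 0.013), with the stricter gate (-1.09, 0.030) and without control replicate 1 (-1.42, 0.0058). Spred1 was at -0.41 ± 0.11 (0.23), Dusp6 at -0.34 ± 0.15 (0.58) and Il17rd at 0.00 ± 0.16 (1.0).

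The difference of the genotype effect between E10.5 and E9.5 was fitted over the 6 libraries of both stages, in a test added after the data were seen. By edgeR, 0 of 10 members were called in mesenchymal cells, beside 0.00579% of genes, and 0 of 10 in Hox-negative cells, beside 0.00666%, and DESeq2 called 0 in both. Il17rd alone had an unadjusted p under 0.05 in each, beside 729 of 17265 and 924 of 15020 genes. It was at -1.31 ± 0.43 in mesenchymal cells (log2, SE, n = 6 libraries, edgeR adjusted p = 0.985) and at -1.36 ± 0.38 in Hox-negative cells (0.513), where a negative value stands for a lower null level at E10.5 relative to E9.5. Spry2 was at 1.03 ± 0.52 (0.985) and 0.97 ± 0.44 (0.801). Only 1 library per genotype stood at E9.5, so the spread came from the E10.5 libraries alone and these p-values do not show that the effects were alike, and kit and genotype cannot be told apart at E9.5.

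**Figure D4:**
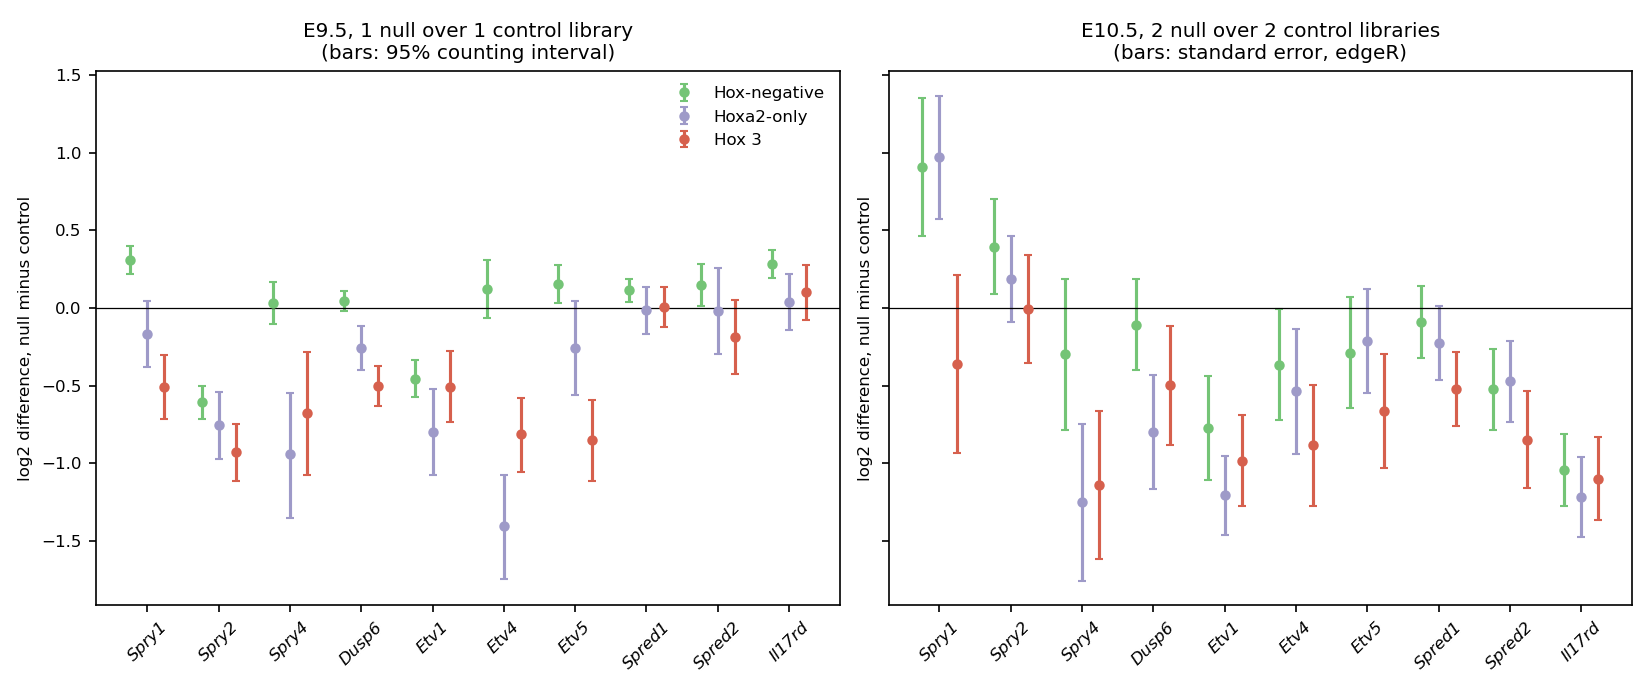
Null against control log2 values (y axis) of the 10 members (x axis) in the 3 Hox classes of mesenchymal cells. The left panel shows the E9.5 ratio of 1 library per genotype with 95% counting intervals, and the right panel the E10.5 edgeR difference ± SE over 2 control and 2 null libraries. Il17rd lies at 0.10 in Hox 3 cells at E9.5 and at -1.10 at E10.5.

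Outside mesenchyme, genotype gave no called member at E10.5 in fits that kept all libraries. In Sox10 cells 0 of 10 were called by edgeR, and by DESeq2, beside 0.0316% of genes. Etv1 alone had an unadjusted p under 0.05, beside 1243 of 12676 genes. It had 16.6 and 8.85 CPM in control and 6.16 and 7.56 CPM in null libraries, -0.90 ± 0.33 (edgeR adjusted p = 0.45). With a library left out in turn, Etv1 ranged from -1.32 to -0.43. Il17rd was at -0.52 ± 0.27 (0.55) there. In neural cells 0 of 10 members and 0% of 15205 genes were called by edgeR, with 0 members and 663 genes at an unadjusted p under 0.05, and DESeq2 called 47 genes, none of them a member. The largest member values there were 0.87 ± 0.64 for Etv5 (0.92) and 0.79 ± 0.58 for Spry1 (0.92), both with CPM near or under 1.

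Other genes of the pathway were counted from lists of receptors and adaptors, ligands, the RAS to ERK cascade, other feedback genes and ERK-responsive transcription genes. Between genotypes at E10.5, 1 of 11 receptors and adaptors was called higher in Hox-negative cells, Fgfr3 at 2.07 ± 0.31 (edgeR adjusted p = 0.035), beside 0.465% of all genes called. Neural markers of these cells summed to 129 to 351 CPM in null against 33.8 to 46.7 CPM in control libraries. Fgfr3 was also lower in mesenchymal than in neural cells (below), and the part of neural signal in its call was not tested. In Hoxa2-only cells 1 of 18 ERK-responsive genes was called higher, Junb at 1.90 ± 0.28 (0.046), beside 0.291% of all genes called. Junb is also the 1 of 12 dissociation stress genes called there, a list with a median of 0.31. None was called in the other 4 genotype comparisons. In Hox 3 against Hox-negative cells, 5 of 11 ligands were higher and none lower, beside 5.45% of all genes higher, led by Fgf5 (2.89 ± 0.40, 0.0049), Fgf1 (2.42) and Fgf18 (2.01), and 0 of 14 cascade genes were called. Lower there were Fgfr2 (-0.85, 0.0025) and Fgfrl1 (-0.69), receptors of the same family, and Fosl2 (-1.33), an AP-1 subunit, as 2 of 11 receptors and 3 of 18 ERK-responsive genes, beside 4.92% of all genes lower. All 7 neural markers were called higher in Hox 3 cells as well, and some endothelial, heart muscle and epithelial markers lower. Fgf18 was lower in mesenchymal than in neural cells (below). The part of such markers' cells in these calls was not tested. In Hoxa2-only cells Lrig1 (0.68), Lrig3 (0.61) and Errfi1 (0.38) were highest, feedback genes of receptor kinases with 4 of 14 called higher and 1 lower, beside 8.4% of all genes higher, and Fosl2 (-1.42), Flrt3 (-0.90) and Fgfr3 (-0.89) were lowest, where 6.97% of all genes were called lower.

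In Dlx5 or Dlx6 cells, 2 of 13 ligands were higher and 4 lower, beside 17% of all genes called in either direction, with Fgf7 at 1.10, Fgf2 at 1.02 and Dusp9 at 0.60, and Fgfr3 at -3.06, Fgf9 at -2.64 and Fgf1 at -2.27. Of the neural markers, 6 of 7 were lower in Dlx cells too, with a median of -3.10, and their part in these values was not tested. In Isl1 or Gata3 cells, 10 of 18 ERK-responsive genes were higher and none lower, with Fosl2 at 2.07, beside 5 of 13 dissociation stress genes higher and 20.4% of all genes called. The ERK-responsive and stress lists share Fos, Fosb, Jun, Junb, Egr1 and Ier2, so their counts are not separate. Fgf9 (2.36) and Fgfrl1 (1.03) were higher too, and Dusp14 (-1.48), Map2k1 (-0.41) and Nras (-0.15) lower. Against neural cells, 14 of 19 ERK-responsive genes were higher in mesenchymal cells and none lower, with Elk3 at 4.46, beside 22.5% of all genes higher. Of the 13 dissociation stress genes, 6 were higher there and 3 lower. Fgf5 (5.07) and Fgf1 (4.25) led the 5 of 14 ligands that were higher, beside the same 22.5%. Lower were 6 ligands, Fgf18 (-4.15) and Fgf12 (-2.14) among them, Fgfr3 (-2.07) and 5 of 14 cascade genes, beside 24.7% of all genes lower. None of the cascade genes was higher. Against Sox10 cells, Fgf10 (4.37), Fgf5 (4.13) and Fgf15 (3.20) were highest, and Egr2 (-4.92), Egr3 (-3.94) and Egr1 (-3.48), early response genes of which Egr2 also belongs to the Schwann lineage, were lowest. From E9.5 to E10.5 in Hox-positive cells, 4 of 14 ligands rose, beside 8.2% of all genes, with Fgf5 at 3.69, Fgf1 at 2.44 and Fgf10 at 1.83. Of 19 ERK-responsive genes 5 fell, beside 7.51%, with Junb at -1.81, Myc at -1.68 and Ets1 at -1.39, and 1 rose. All genes called in that comparison numbered 0 to 4264 over the alternatives. The dissociation stress genes, of which Junb is also one, had 4 of 13 lower there.

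Over the 35 sums of 5 classes in 7 libraries, the members' standardised log2 levels were compared with each other and with all 9513 genes above 5 CPM on average, as a description without a test, since the sums share libraries and depth. Etv5 lay closest to the members' mean (Pearson r = 0.94), then Dusp6 and Etv4 (0.90 each), and Spred2 farthest (0.70). Each member is itself part of that mean, which raises its r relative to genes outside the list. Of the 45 member pairs, Dusp6 and Etv5 were most alike (0.94), Spred1 and Il17rd least (0.20), and the median was 0.66. The genes outside the list with the highest r were Cdc14b (0.89), Cdc42ep5 (0.84), Ripk3 (0.83), Igfbp3 (0.83) and Rbms1 (0.83).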

How the data were processed

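Ten-gene levels were derived from droplet single-cell RNA sequencing of sorted EGFP-positive cells (7 libraries). The authors aligned reads to mm10 with Cell Ranger 6.0.1 and deposited unnormalised UMI counts per gene and barcode, 140264662 to 234844769 per library. Tool and build come from the submitters' processing notes. Barcodes with 1000 or more genes and no more than 10% of UMIs from mitochondria were kept, and the barcodes with the highest Scrublet scores (scanpy 1.11.5), 0.8% per 1000 barcodes, were removed as doublets.

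UMIs were summed per library and cell class. Sums were compared with edgeR 4.0.16 (R 4.3.3; TMM, filterByExpr, glmQLFit and glmQLFTest, two-sided), with library as a block for classes of the same libraries, and p-values were Benjamini-Hochberg adjusted over all genes tested in each of 16 comparisons. A gene was called at an adjusted p under 0.05. At E9.5, log2 ratios used TMM and a pseudocount of 0.5 UMIs, with exact 95% intervals for counting error only. UMI counts of 1 library give no replicate error. Positions came from GENCODE vM21 on GRCm38.

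The members and lists, and the tests, were chosen with earlier results of these data known. Named genes were the 10 members, the 3 largest rises and falls among called genes of the pathway lists per comparison, and the 5 genes most like the members. Alternatives were DESeq2 1.42.0, edgeR with DESeq2 size factors, all genes with a count, the replicate number as a block, cells thinned to 5000 UMIs, a filter of 200 genes and 5% mitochondrial UMIs, doublets kept, a stricter gate, another pseudocount (5 UMIs), total UMIs in place of TMM and leaving out each library. Cells without Dlx5 or Dlx6 and cells without Isl1 or Gata3 were alternatives chosen after seeing the data, as was the test of the genotype effect between stages. The edgeR steps were tested on simulated data.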

Additional observations from a re-analysis of the deposited data

Results flagged for a closer look

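Some members with a sign at E9.5 opposite to that of both null libraries at E10.5 are listed here, and the list may not be complete. In mesenchymal cells the E9.5 log2 ratio of null over control was 0.062 for Spred1 and 0.21 for Il17rd, while both null libraries lay below both controls at E10.5. In Hox-negative cells it was 0.15 for Spred2 and 0.28 for Il17rd, again with both null libraries below both controls at E10.5. Spry2 in Hox-negative cells was at -0.61 at E9.5, while both null libraries lay above both controls at E10.5. The E9.5 ratio was also positive for Spred2 in mesenchymal, Spry4 in Hox-negative, and Spred1 and Il17rd in Hox 3 cells. For each of these, both null libraries lay below both controls at E10.5. These positions are after TMM scaling. In the fit of the genotype effect between stages by edgeR, in mesenchymal cells Spred1 was at -0.37 (adjusted p = 0.985) and Il17rd at -1.31 (0.985), and in Hox-negative cells Spred2 was at -0.71 (0.868), Il17rd at -1.36 (0.513) and Spry2 at 0.97 (0.801). E9.5 had 1 library per genotype, so that the E10.5 libraries alone gave the spread and the opposite signs remain without a firm test, and the kit differed between genotypes at E9.5.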

How the results depend on the processing

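Of 2225 results for the members under alternatives, 1962 kept their direction and side of the threshold (or moved by less than the spread), 73 gained and 67 lost a call, 97 changed sign and 26 moved; the cause was not tested. The number of called members changed with DESeq2 to 2 in mesenchymal, 2 in Hoxa2-only and 1 in Hox 3 cells between genotypes, to 4 for Hoxa2-only against Hox-negative cells and to 2 for stage. Without the filter on low counts it was 2 in mesenchymal, 1 in Hox-negative and 3 in Hoxa2-only cells, 4 for stage and 1 for the interaction. Thinning gave 2 for Hoxa2-only against Hox-negative cells, 0 for Dlx5 or Dlx6, 4 for Isl1 or Gata3 and 2 for stage, and doublets kept gave 2 for stage. The strict gate gave 10 for Hox 3 against Hox-negative cells, 1 for Dlx5 or Dlx6, 5 for Isl1 or Gata3, 3 for stage and 1 for the interaction. At E9.5 the number under -0.5 was 3 in thinned Hox-negative cells, and 4 in Hox 3 cells with total UMIs, the alternative cell filter, doublets kept or the strict gate.

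Leaving out 1 library gave 0 to 3 called members between genotypes in Hox-negative and in Hoxa2-only cells, 0 to 4 in Hox 3 and 0 to 1 in Sox10 cells, 2 to 7 for Hox 3 and 2 to 8 for Hoxa2-only against Hox-negative cells, 0 to 4 for Dlx5 or Dlx6, 0 to 3 for Isl1 or Gata3, 0 to 5 for stage and 0 to 1 for the interaction. A fit without a library can leave 1 library in a group, which is then assumed to vary like the others.

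Signs of members turned as follows. Thinned cells: genotype, Etv5 0.0062 in mesenchymal, 0.27 in Hox-negative and 0.021 in Sox10 cells, and Spry1 0.23 and Spry2 0.16 in Hox 3 cells. Also thinned: Etv1 -0.11 for Hoxa2-only cells, Spry1 -0.11, Spry2 -0.38 and Spred1 -0.073 for Dlx5 or Dlx6, Spry1 -0.20 for Isl1 or Gata3, Spry4 0.51 against Sox10 cells, Il17rd 0.039 for stage, Etv1 0.35 in the interaction, for the genotype effect between stages Etv4 0.52 and Etv5 0.21 in mesenchymal and Etv4 0.44 and Etv5 0.40 in Hox-negative cells, and at E9.5 Etv5 -0.15 in Hox-negative and Dusp6 -0.053 in Sox10 cells. Strict gate: Spry4 0.012 and Dusp6 0.019 in Hox-negative and Spry1 0.11 and Spry2 0.27 in Hox 3 cells, Spry1 -0.23 and Spry2 -0.28 for Dlx5 or Dlx6, Spry1 -0.25 for Isl1 or Gata3, Spred2 -0.016 for stage, Etv1 0.33 and Etv5 0.017 in the interaction, and Etv4 0.15 for the genotype effect between stages in mesenchymal cells. Spry2 in Hox 3 cells, at -0.01, was 0.0072 with DESeq2, 0.0073 with its size factors, 0.0065 without the filter on low counts, 0.012 with doublets kept and 0.021 with the alternative cell filter. Etv1 for Hoxa2-only cells was -0.030 with DESeq2 and -0.0078 with doublets kept. For stage, Spred2 was -0.057 with DESeq2 and with its size factors, and Il17rd was 0.0020 without the filter, and Il17rd in the interaction was -0.0015 with DESeq2.

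Without 1 library in turn, genotype values ranged in mesenchymal cells from -1.15 to 0.029 for Dusp6, -0.96 to 1.02 for Spry1 and -0.17 to 0.66 for Spry2. In Hox 3 cells Spry1 ranged from -1.71 to 0.33 and Spry2 from -0.54 to 0.41. In Hoxa2-only cells Etv5 ranged from -0.81 to 0.16 and Spry2 from -0.12 to 0.44. In Hox-negative cells Dusp6 ranged from -0.62 to 0.20, Etv4 from -0.76 to 0.022, Etv5 from -0.70 to 0.12, Spred1 from -0.36 to 0.095 and Spry1 from -0.19 to 1.41. In Sox10 cells Etv4 ranged from -0.35 to 0.51 and Spry2 from -0.0025 to 0.15, and in neural cells Etv1 from -0.56 to 0.29, Spred1 from -0.18 to 0.32 and Spred2 from -0.21 to 0.026. Between classes, Etv1 ranged from -0.11 to 0.11 for Hoxa2-only cells, Spry2 from -0.062 to 0.073 for Dlx5 or Dlx6, Etv4 from -0.24 to 0.028, Spred2 from -0.0646 to 0.023 and Spry1 from -0.11 to 0.25 for Isl1 or Gata3, and Spred2 from -0.027 to 0.21 against Sox10 cells. For stage, Il17rd ranged from -0.61 to 0.67 and Spred2 from -0.26 to 0.28. In the interaction Etv1 ranged from -0.86 to 0.56, Etv4 from -1.57 to 0.35, Etv5 from -1.21 to 0.41, Il17rd from -0.24 to 0.20 and Spry2 from -0.94 to 0.015. For the genotype effect between stages, Spry1 ranged from -1.13 to 0.86, Dusp6 from -1.08 to 0.10, Etv4 from -0.73 to 0.39 and Etv5 from -0.86 to 0.020 in mesenchymal cells, and Spry1 from -0.54 to 1.09, Dusp6 from -0.71 to 0.14 and Etv1 from -0.87 to 0.12 in Hox-negative cells; without either E9.5 library it could not be fitted.

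With the replicate block, 1 member was called in Hox-negative cells (Il17rd, -1.02, adjusted p = 0.0040) and 2 in Hoxa2-only cells (Il17rd, -1.24, 0.0052; Etv1, -1.19, 0.011), and it changed no other member's call. All genes called under the block numbered 127 in mesenchymal, 1210 in Hox-negative, 515 in Hoxa2-only, 192 in Hox 3, 102 in Sox10 and 99 in neural cells, against 16, 60, 40, 4, 4 and 0 without it. Deviations of same-numbered libraries correlated at 0.21 to 0.62, but with 2 pairs and no shared batch in the labels the numbers only name the pools. Over all alternatives the genes called ranged from 0 to 1416 in mesenchymal, 30 to 1210 in Hox-negative, 18 to 772 in Hoxa2-only, 0 to 377 in Hox 3, 0 to 717 in Sox10 and 0 to 163 in neural cells. For class contrasts they ranged from 484 to 1999 (main 1476) for Hox 3, 298 to 3067 (2047) for Hoxa2-only, 311 to 3974 (2516) for Dlx5 or Dlx6, 754 to 3379 (2882) for Isl1 or Gata3, 3266 to 6554 (5834) for Sox10 and 4452 to 8759 (7291) for neural cells, and 0 to 4264 (2437) for stage 40 to 243 (53) for the interaction, and 1 to 335 (1) and 1 to 283 (1) for the genotype effect between stages in mesenchymal and Hox-negative cells. In neural cells after E8.5, Spry4, Etv4 and Etv5 had under 1 CPM, so few UMIs stand behind their values there.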
